A study of Homo sapiens with 9 samples.

Results

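This account covers 40 genes of the unfolded protein response and of its ATF4 branch in MG-63, a cell line from a human osteosarcoma that often stands in for osteoblasts, grown on coated and bare titanium alloy. The genes were chosen by name, and each name matched 1 row of a table of 36385 genes. They fall into 4 roles: 10 amino acid and one-carbon genes and 13 transcription factors and regulators of the ATF4 arm, and 3 sensors and 14 chaperone and degradation genes of the ATF6 and XBP1 arm. RNA was sequenced from 3 surfaces with 3 libraries each: boronized Ti6Al4V carrying HA (HA coating), Ti6Al4V with TiB2 (TiB2), and Ti6Al4V alone (bare alloy). Cells on every surface were kept for 7 days in osteogenic medium; its additives were dexamethasone at 100 nM, ascorbic acid at 50 µg/mL and beta-glycerophosphate at 10 mM. The labels state that the TiB2 libraries did not enter the submitters' final analysis, and they leave unsaid whether each library is its own culture; the p-values therefore rest on a spread between libraries that could be technical.

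The endoplasmic reticulum folds secreted and membrane proteins, and cells that make bone matrix secrete large amounts of collagen through it. When unfolded protein builds up, PERK phosphorylates the initiation factor eIF2alpha, which lowers translation as a whole while the mRNA of ATF4 is translated more; other kinases reach the same step from amino acid shortage or other stresses. ATF4 then drives genes of amino acid uptake and synthesis, whereas ATF6, once cleaved, and XBP1, once its mRNA is spliced by IRE1 (the product of ERN1), drive chaperones and the degradation of misfolded protein. Gene counts follow mRNA abundance, so cleavage, splicing and translation of these factors were not measured.

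Promoter windows of the 9 members that held a searched motif and passed a test in at least 1 comparison are shown because these motifs are known from genes of the arms compared here. Sequences are from RefSeq (GRCh38.p14) and run 5′ to 3′ on the gene's strand, 250 bases before to 50 bases after an annotated start. Capitals mark every match, on either strand, to the ER stress element (CCAAT and CCACG with 9 bases between them), the ER stress element II (ATTGG and CCACG with 1 base between them), the unfolded protein response element (TGACGTGG) or the C/EBP-ATF response element (TGATGNAAN).
HSPA5: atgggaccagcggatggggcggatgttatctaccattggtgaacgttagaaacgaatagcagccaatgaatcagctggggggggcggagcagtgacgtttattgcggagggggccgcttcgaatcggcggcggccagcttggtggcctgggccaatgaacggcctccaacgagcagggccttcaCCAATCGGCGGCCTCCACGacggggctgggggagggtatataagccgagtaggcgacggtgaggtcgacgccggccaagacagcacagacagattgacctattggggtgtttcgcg
CALR: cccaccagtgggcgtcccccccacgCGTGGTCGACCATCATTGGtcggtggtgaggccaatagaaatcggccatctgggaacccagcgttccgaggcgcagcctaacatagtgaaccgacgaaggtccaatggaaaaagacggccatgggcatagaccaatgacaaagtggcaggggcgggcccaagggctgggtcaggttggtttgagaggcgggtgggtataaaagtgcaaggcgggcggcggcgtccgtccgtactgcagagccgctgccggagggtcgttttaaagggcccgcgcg
CRELD2: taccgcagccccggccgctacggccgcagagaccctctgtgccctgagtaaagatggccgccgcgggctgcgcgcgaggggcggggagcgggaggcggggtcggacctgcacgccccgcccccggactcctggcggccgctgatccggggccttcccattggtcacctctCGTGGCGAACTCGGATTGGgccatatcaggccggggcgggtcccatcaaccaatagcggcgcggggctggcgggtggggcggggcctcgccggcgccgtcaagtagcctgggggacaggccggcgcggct
HERPUD1: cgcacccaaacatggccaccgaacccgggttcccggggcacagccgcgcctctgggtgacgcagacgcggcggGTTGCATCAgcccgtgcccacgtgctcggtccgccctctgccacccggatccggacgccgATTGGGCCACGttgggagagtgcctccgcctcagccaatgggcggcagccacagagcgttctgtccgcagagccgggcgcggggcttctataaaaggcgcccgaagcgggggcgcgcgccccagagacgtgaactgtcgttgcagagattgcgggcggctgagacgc
HYOU1: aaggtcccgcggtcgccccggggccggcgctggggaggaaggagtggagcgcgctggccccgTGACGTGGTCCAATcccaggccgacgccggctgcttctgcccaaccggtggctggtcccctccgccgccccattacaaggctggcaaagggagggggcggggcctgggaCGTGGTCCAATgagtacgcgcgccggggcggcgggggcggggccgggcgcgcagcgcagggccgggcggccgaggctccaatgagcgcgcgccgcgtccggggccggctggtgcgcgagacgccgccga
SDF2L1: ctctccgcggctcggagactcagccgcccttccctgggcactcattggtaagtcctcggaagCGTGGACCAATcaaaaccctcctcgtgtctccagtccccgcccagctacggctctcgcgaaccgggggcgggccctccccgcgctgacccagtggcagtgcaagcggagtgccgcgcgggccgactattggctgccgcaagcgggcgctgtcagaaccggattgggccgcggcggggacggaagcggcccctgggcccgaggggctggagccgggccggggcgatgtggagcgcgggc
ASNS: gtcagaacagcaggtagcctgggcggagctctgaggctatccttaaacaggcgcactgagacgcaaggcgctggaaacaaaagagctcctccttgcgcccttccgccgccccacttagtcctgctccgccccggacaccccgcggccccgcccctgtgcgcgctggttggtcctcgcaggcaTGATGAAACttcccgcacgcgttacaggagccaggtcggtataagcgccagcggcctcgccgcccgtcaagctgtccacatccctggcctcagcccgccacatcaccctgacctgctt
ATF3: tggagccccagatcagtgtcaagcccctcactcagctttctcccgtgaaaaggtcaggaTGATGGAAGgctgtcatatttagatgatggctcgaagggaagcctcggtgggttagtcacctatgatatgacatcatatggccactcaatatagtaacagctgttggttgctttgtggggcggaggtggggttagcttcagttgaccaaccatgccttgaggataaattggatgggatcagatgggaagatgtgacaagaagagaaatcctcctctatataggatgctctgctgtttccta
SLC3A2: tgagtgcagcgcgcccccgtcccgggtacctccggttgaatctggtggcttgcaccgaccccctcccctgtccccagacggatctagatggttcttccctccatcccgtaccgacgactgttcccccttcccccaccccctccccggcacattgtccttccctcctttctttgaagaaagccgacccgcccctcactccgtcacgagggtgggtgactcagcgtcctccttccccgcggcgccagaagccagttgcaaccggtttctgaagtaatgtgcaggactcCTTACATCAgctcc

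The HSPA5 window lies at chr9:125241294-125241593 (- strand), and its element begins 66 bases before the start. The CALR window lies at chr19:12938359-12938658 (+ strand) and that of CRELD2 at chr22:49918384-49918683 (+ strand), both with an ER stress element on the opposite strand. The HERPUD1 window lies at chr16:56931892-56932191 (+ strand) and holds an ER stress element II and a C/EBP-ATF response element. The HYOU1 window lies at chr11:119057156-119057455 (- strand) and holds 2 copies of the ER stress element II, the farther of which overlaps the unfolded protein response element. The SDF2L1 window lies at chr22:21642052-21642351 (+ strand). The ASNS window lies at chr7:97872359-97872658 (- strand) with its element beginning 68 bases before the start, the ATF3 window at chr1:212565157-212565456 (+ strand), and the SLC3A2 window at chr11:62881449-62881748 (+ strand).

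Windows were given for 36 of the 40 members, all but PSPH, SHMT2, ALDH1L2 and NUPR1, and a gene with several starts counted once if any of its windows held the motif. The ER stress element was found in CALR, CRELD2, HSP90B1, HSPA5, PDIA6 and XBP1, and in 0.0769% of all 35116 windows. The ER stress element II was found in HERPUD1, HYOU1 and SDF2L1, and in 0.0541% of all windows. All 9 of these members belong to the ATF6 and XBP1 arm. The C/EBP-ATF response element was found in ASNS, ATF3, CEBPG, CHAC1, HERPUD1, SLC3A2 and SLC7A1, against 3.61% of all windows, and the unfolded protein response element in HYOU1, against 0.729%. A match describes these letters only.

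The 9 libraries held 58464306 to 72542556 counts, and the lowest count of any member in any library was 130. Counting error was not set against the spread between libraries for each member. Pairs of HA libraries differed by 60.3 to 95.1 times the variance that counting alone gives (median over genes), against at most 17.8 times on TiB2 and at most 14.9 times on bare alloy. HA replicate 3 differed from the other HA libraries, in part with transcript length, and a further split put bare alloy replicate 1 with the 3 HA libraries. In these 4 libraries, 22 genes had at most 3 counts and in the other 5 at least 20, or the reverse; by the same limits 22 genes set HA replicate 3 apart from the other 8 libraries and 19 set bare alloy replicate 1 apart. Among the genes of the 4-library split, the T cell markers CD3D, CD3E and LCK had 0 counts in the 4 libraries and 57 to 175 counts in each of the other 5. The 6 T cell markers summed to 0.112 to 0.407 CPM in the HA libraries, to 6.64 to 7.43 CPM on TiB2, and to 0.384, 5.17 and 6.13 CPM on bare alloy. All 6 osteoblast and mesenchymal markers were detected in every library.

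Against bare alloy, 8 of the 40 members passed the test on the HA coating (beside 9.89% of the 20117 genes tested) and 20 passed on TiB2 (50.0%, beside 25.1% of 20152). On the HA coating 6 rose (5.02% of all genes did) and 2 fell (4.88% of all genes), and on TiB2 14 rose (12.9% of all genes) and 6 fell (12.2% of all genes). Between the coatings, CEBPB alone passed (2.5% of members, beside 0.632% of 20086 genes), and it was lower on the HA coating, as were 0.453% of all genes. ALDH1L2, ATF3, MANF, MTHFD2, PSAT1, TRIB3 and VLDLR passed in both comparisons with bare alloy, which share the bare alloy libraries, so the values of each comparison are given side by side below. A gene passed when its p from edgeR's quasi-likelihood test, adjusted by Benjamini-Hochberg over all genes tested, was under 0.05. All 40 members were tested in all 3 comparisons, and 18 passed in none, among them ATF4, DDIT3, ATF6, ERN1 and XBP1.

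**Figure D1:**
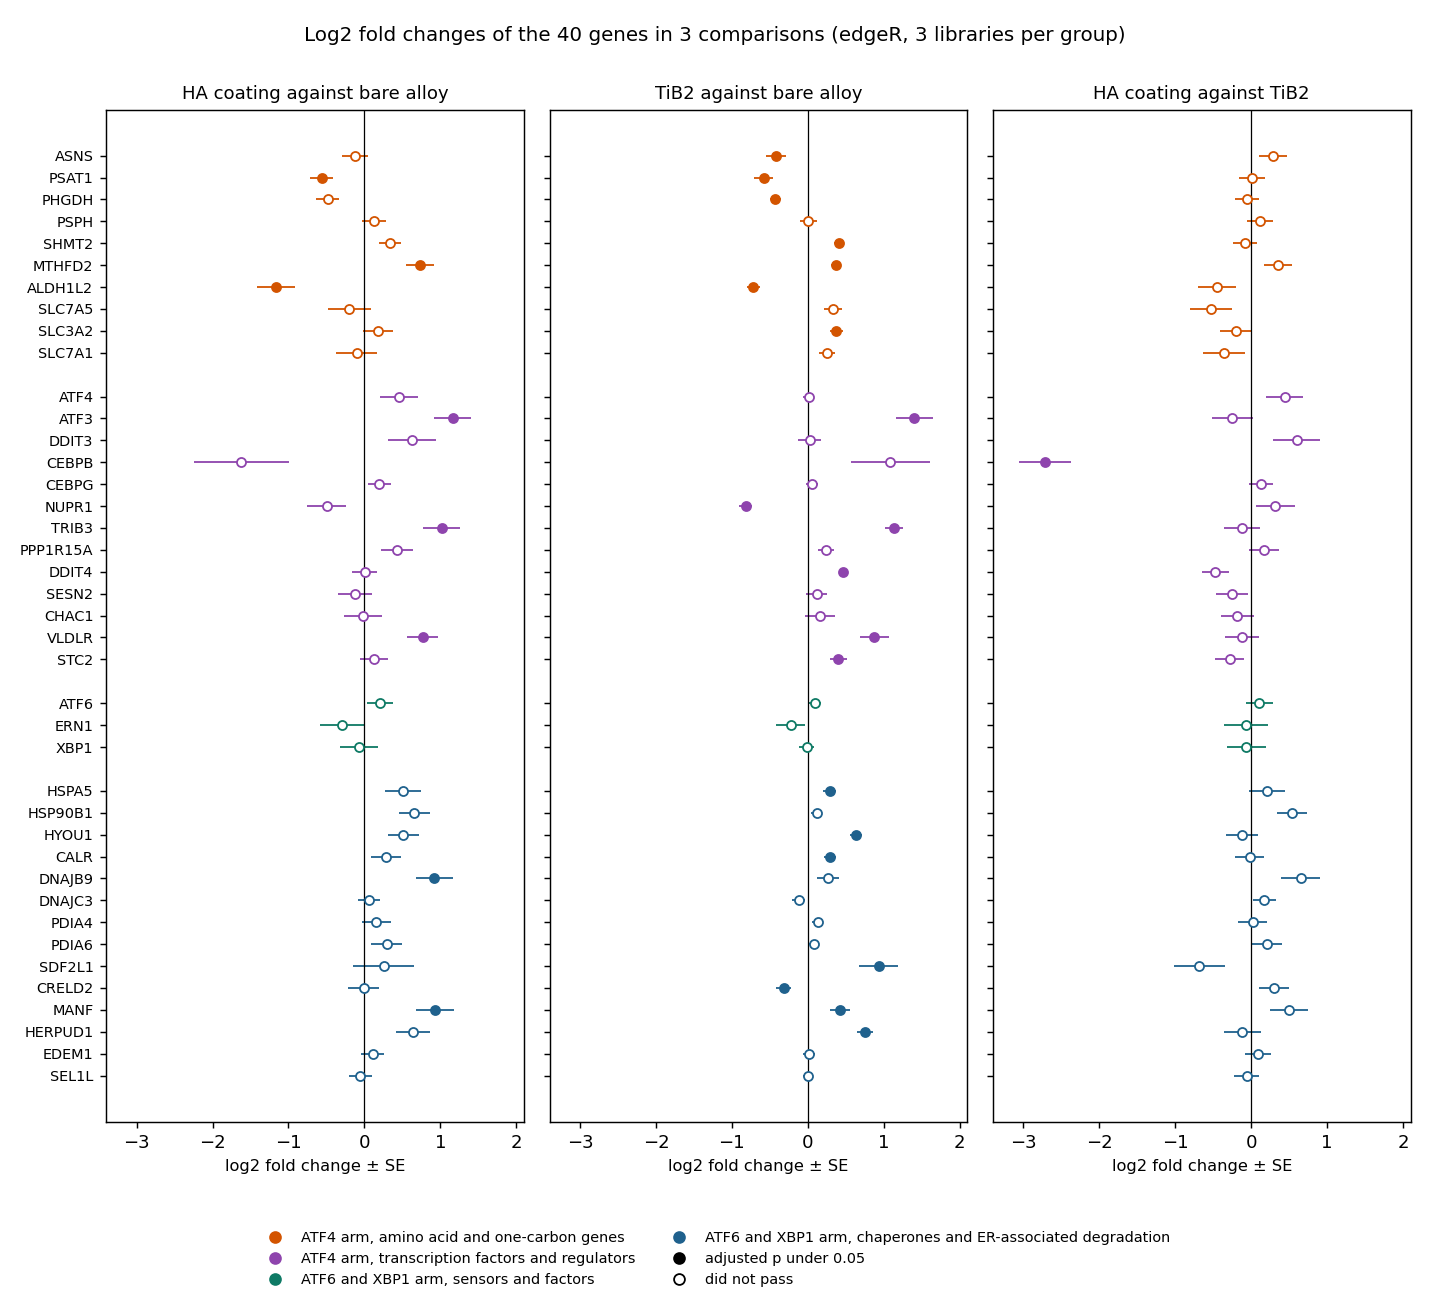
Log2 fold change (x axis) with its standard error for each of the 40 genes (rows, coloured by role) in 3 comparisons, 3 libraries per group. Filled points had an edgeR adjusted p under 0.05: 8 genes for the HA coating against bare alloy, 20 for TiB2 against bare alloy and CEBPB between the coatings.

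Levels within a gene are given below as CPM, the counts scaled to library size after TMM normalization, for replicates 1, 2 and 3 of each surface in turn. Between genes, levels can be compared only per length, in the authors' FPKM. By mean FPKM over the 9 libraries, CALR was the highest member at 396 FPKM, followed by ATF4 at 221 FPKM. PDIA6, HSPA5 and SLC7A5 followed at 112, 108 and 105 FPKM, and their spreads overlapped. CHAC1 (3.96 FPKM), SESN2 (3.23 FPKM), ATF3 (1.25 FPKM), VLDLR (0.311 FPKM) and ERN1 (0.266 FPKM) were the lowest.

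Among the amino acid and one-carbon genes, changes ran in both directions, with PSAT1 and ALDH1L2 lower and MTHFD2 higher on both coatings. On TiB2, 3 of 10 rose and 4 fell (beside 12.9% and 12.2% of all genes), and on the HA coating 1 rose and 2 fell (beside 5.02% and 4.88%). The median log2 fold change over the 10 was -0.11 on the HA coating and 0.13 on TiB2, beside 0.01 and 0.00 over all genes tested.

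PHGDH, the first enzyme of serine synthesis, had 130, 118 and 141 CPM on the HA coating and 142, 135 and 124 CPM on TiB2, against 182, 176 and 183 CPM on bare alloy. Every coated library lay below every bare alloy library. On TiB2 PHGDH fell by 0.43 ± 0.07 on the log2 scale (SE; edgeR adjusted p = 0.00211), whereas the HA value of -0.48 ± 0.15 did not pass (adjusted p = 0.0772). PSAT1, the next enzyme of the pathway, had 43.5, 48.6 and 47.5 CPM on the HA coating and 54.6, 44.3 and 38.4 CPM on TiB2, against 73.0, 70.4 and 62.2 CPM on bare alloy. Here too the coated libraries were all lower. PSAT1 fell by 0.56 ± 0.15 on the HA coating (adjusted p = 0.0438) and by 0.58 ± 0.13 on TiB2 (adjusted p = 0.00867). PSPH, which completes the pathway, did not pass on either coating, with log2 fold changes of 0.13 ± 0.16 on the HA coating and 0.01 ± 0.11 on TiB2.

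ASNS, which makes asparagine, had 27.4, 34.4 and 34.5 CPM on the HA coating and 30.5, 21.6 and 25.9 CPM on TiB2, against 30.8, 38.4 and 35.4 CPM on bare alloy. TiB2 replicate 1 lay just under bare alloy replicate 1, and the HA range overlapped that of bare alloy. ASNS fell by 0.42 ± 0.13 on TiB2 (edgeR adjusted p = 0.048), a call lost without TiB2 replicate 2 or 3 or bare alloy replicate 2 or 3 (adjusted p up to 0.155). ALDH1L2, a mitochondrial formyl-tetrahydrofolate dehydrogenase, had 38.4, 33.1 and 18.6 CPM on the HA coating and 36.3, 41.6 and 44.4 CPM on TiB2, against 68.4, 65.9 and 66.9 CPM on bare alloy. HA replicate 3 was the lowest library, and no coated library reached the bare alloy range. ALDH1L2 fell by 1.16 ± 0.25 on the HA coating (adjusted p = 0.0231) and by 0.71 ± 0.09 on TiB2 (adjusted p = 0.000427).

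MTHFD2, the mitochondrial methylene-tetrahydrofolate dehydrogenase, had 178, 223 and 272 CPM on the HA coating and 178, 164 and 179 CPM on TiB2, against 135, 140 and 128 CPM on bare alloy. All coated libraries were higher, HA replicate 3 most. MTHFD2 rose by 0.73 ± 0.18 on the HA coating (edgeR adjusted p = 0.0403) and by 0.37 ± 0.07 on TiB2 (adjusted p = 0.00376). SHMT2, which moves the serine carbon to folate in mitochondria, had 193, 180 and 196 CPM on the HA coating and 209, 198 and 189 CPM on TiB2, against 148, 145 and 155 CPM on bare alloy. The coated ranges overlapped each other and lay above bare alloy. SHMT2 rose by 0.41 ± 0.07 on TiB2 (adjusted p = 0.00197), and the HA value of 0.34 ± 0.15 did not pass (adjusted p = 0.174).

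SLC3A2, the heavy chain that carries light-chain amino acid transporters to the membrane, had 236, 154 and 226 CPM on the HA coating and 252, 240 and 213 CPM on TiB2, against 175, 175 and 194 CPM on bare alloy. HA replicate 2 lay below bare alloy while the other HA libraries lay above it. SLC3A2 rose by 0.38 ± 0.08 on TiB2 (edgeR adjusted p = 0.00888). Its leucine-transporting partner SLC7A5 did not pass on TiB2 (0.33 ± 0.12, adjusted p = 0.0708) or on the HA coating (-0.20 ± 0.29), where replicate 1 had 658 CPM and replicates 2 and 3 had 334 and 325 CPM. The arginine transporter SLC7A1 did not pass either, at -0.10 ± 0.27 on the HA coating and 0.25 ± 0.10 on TiB2.

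Among the factors and regulators of the ATF4 arm, the stress factor ATF3, the ATF4-binding pseudokinase TRIB3 and the lipoprotein receptor VLDLR rose on both coatings, while ATF4 and DDIT3 mRNA did not pass on either. On TiB2, 5 of 13 rose and 1 fell (beside 12.9% and 12.2% of all genes), and on the HA coating 3 rose and none fell (beside 5.02% and 4.88%). The median log2 fold change over the 13 was 0.20 on the HA coating and 0.25 on TiB2.

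ATF4 itself had 596, 572 and 1078 CPM on the HA coating and 512, 561 and 567 CPM on TiB2, against 565, 531 and 533 CPM on bare alloy. HA replicate 3 stood far above the other 8 libraries, which lay within a narrow range. The log2 fold change was 0.46 ± 0.25 on the HA coating (edgeR adjusted p = 0.283) and 0.01 ± 0.07 on TiB2 (adjusted p = 0.925). Without HA replicate 3 the HA value was 0.11. DDIT3, the proapoptotic factor CHOP, had 13.8, 16.8 and 33.9 CPM on the HA coating and 11.9, 14.5 and 15.8 CPM on TiB2, against 14.6, 15.4 and 11.6 CPM on bare alloy. Again HA replicate 3 alone was high, and the log2 fold changes of 0.63 ± 0.32 on the HA coating and 0.02 ± 0.15 on TiB2 did not pass.

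ATF3 had 6.08, 4.93 and 7.35 CPM on the HA coating and 4.82, 8.33 and 8.47 CPM on TiB2, against 2.94, 2.96 and 2.22 CPM on bare alloy. All coated libraries exceeded all bare alloy libraries. ATF3 rose by 1.16 ± 0.24 on the HA coating (edgeR adjusted p = 0.02) and by 1.41 ± 0.24 on TiB2 (adjusted p = 0.00285). TRIB3 had 25.9, 14.2 and 24.1 CPM on the HA coating and 20.5, 24.1 and 24.6 CPM on TiB2, against 9.54, 11.3 and 10.7 CPM on bare alloy. HA replicate 2 was the lowest coated library and still lay above bare alloy. TRIB3 rose by 1.02 ± 0.24 on the HA coating (adjusted p = 0.0321) and by 1.13 ± 0.12 on TiB2 (adjusted p = 0.00016). VLDLR had 6.66, 6.11 and 5.67 CPM on the HA coating and 5.20, 6.99 and 7.66 CPM on TiB2, against 3.84, 3.55 and 3.38 CPM on bare alloy. Both coatings lay apart from bare alloy but overlapped each other, and VLDLR rose by 0.77 ± 0.20 on the HA coating (adjusted p = 0.0453) and by 0.88 ± 0.19 on TiB2 (adjusted p = 0.00764).

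NUPR1, a small stress-induced chromatin protein, had 119, 126 and 233 CPM on the HA coating and 124, 118 and 137 CPM on TiB2, against 242, 215 and 213 CPM on bare alloy. HA replicates 1 and 2 lay with TiB2 and HA replicate 3 with bare alloy. NUPR1 fell by 0.82 ± 0.08 on TiB2 (edgeR adjusted p = 0.000132), and the HA value of -0.50 ± 0.26 did not pass (adjusted p = 0.249). DDIT4, an inhibitor of mTOR signalling, had 87.1, 77.6 and 110 CPM on the HA coating and 127, 129 and 121 CPM on TiB2, against 90.2, 92.3 and 90.7 CPM on bare alloy. The TiB2 libraries were the 3 highest. DDIT4 rose by 0.47 ± 0.06 on TiB2 (adjusted p = 0.000658), the HA value was 0.00 ± 0.17, and the difference between the coatings, -0.47 ± 0.18, did not pass (adjusted p = 0.364). STC2, a secreted glycoprotein, had 145, 101 and 133 CPM on the HA coating and 135, 176 and 147 CPM on TiB2, against 117, 104 and 125 CPM on bare alloy. TiB2 lay above bare alloy and the HA range spanned it. STC2 rose by 0.40 ± 0.11 on TiB2 (adjusted p = 0.0242), a call lost without TiB2 replicate 2 or bare alloy replicate 1 or 2 (adjusted p up to 0.0902).

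CEBPB, a leucine-zipper factor that also acts in adipocyte and osteoblast differentiation, had 6.67, 4.05 and 11.3 CPM on the HA coating and 59.6, 43.6 and 41.3 CPM on TiB2, against 4.95, 25.5 and 37.5 CPM on bare alloy. Bare alloy replicate 1 lay with the HA libraries, and bare alloy replicates 2 and 3 lay between the HA and TiB2 ranges. CEBPB was lower on the HA coating than on TiB2 by a log2 fold change of -2.72 ± 0.34 (edgeR adjusted p = 0.0072). Against bare alloy the values of -1.62 ± 0.63 on the HA coating (adjusted p = 0.134) and 1.09 ± 0.53 on TiB2 (adjusted p = 0.168) did not pass. The 4 low libraries are those in which CD3D, CD3E and LCK had 0 counts, so the coating and that split of the libraries cannot be told apart in the HA and TiB2 libraries.

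The other regulators did not pass in any comparison. CEBPG, a partner of ATF4, ranged from 42.2 to 57.0 CPM over the 9 libraries. PPP1R15A, the phosphatase subunit GADD34 that reverses eIF2alpha phosphorylation, had log2 fold changes of 0.42 ± 0.21 on the HA coating and 0.25 ± 0.11 on TiB2. SESN2, a leucine-sensing inhibitor of mTOR, was at -0.13 ± 0.23 on the HA coating and 0.12 ± 0.14 on TiB2, and CHAC1, which degrades glutathione, was at -0.02 ± 0.25 and 0.16 ± 0.20 on the same surfaces.

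**Figure D2:**
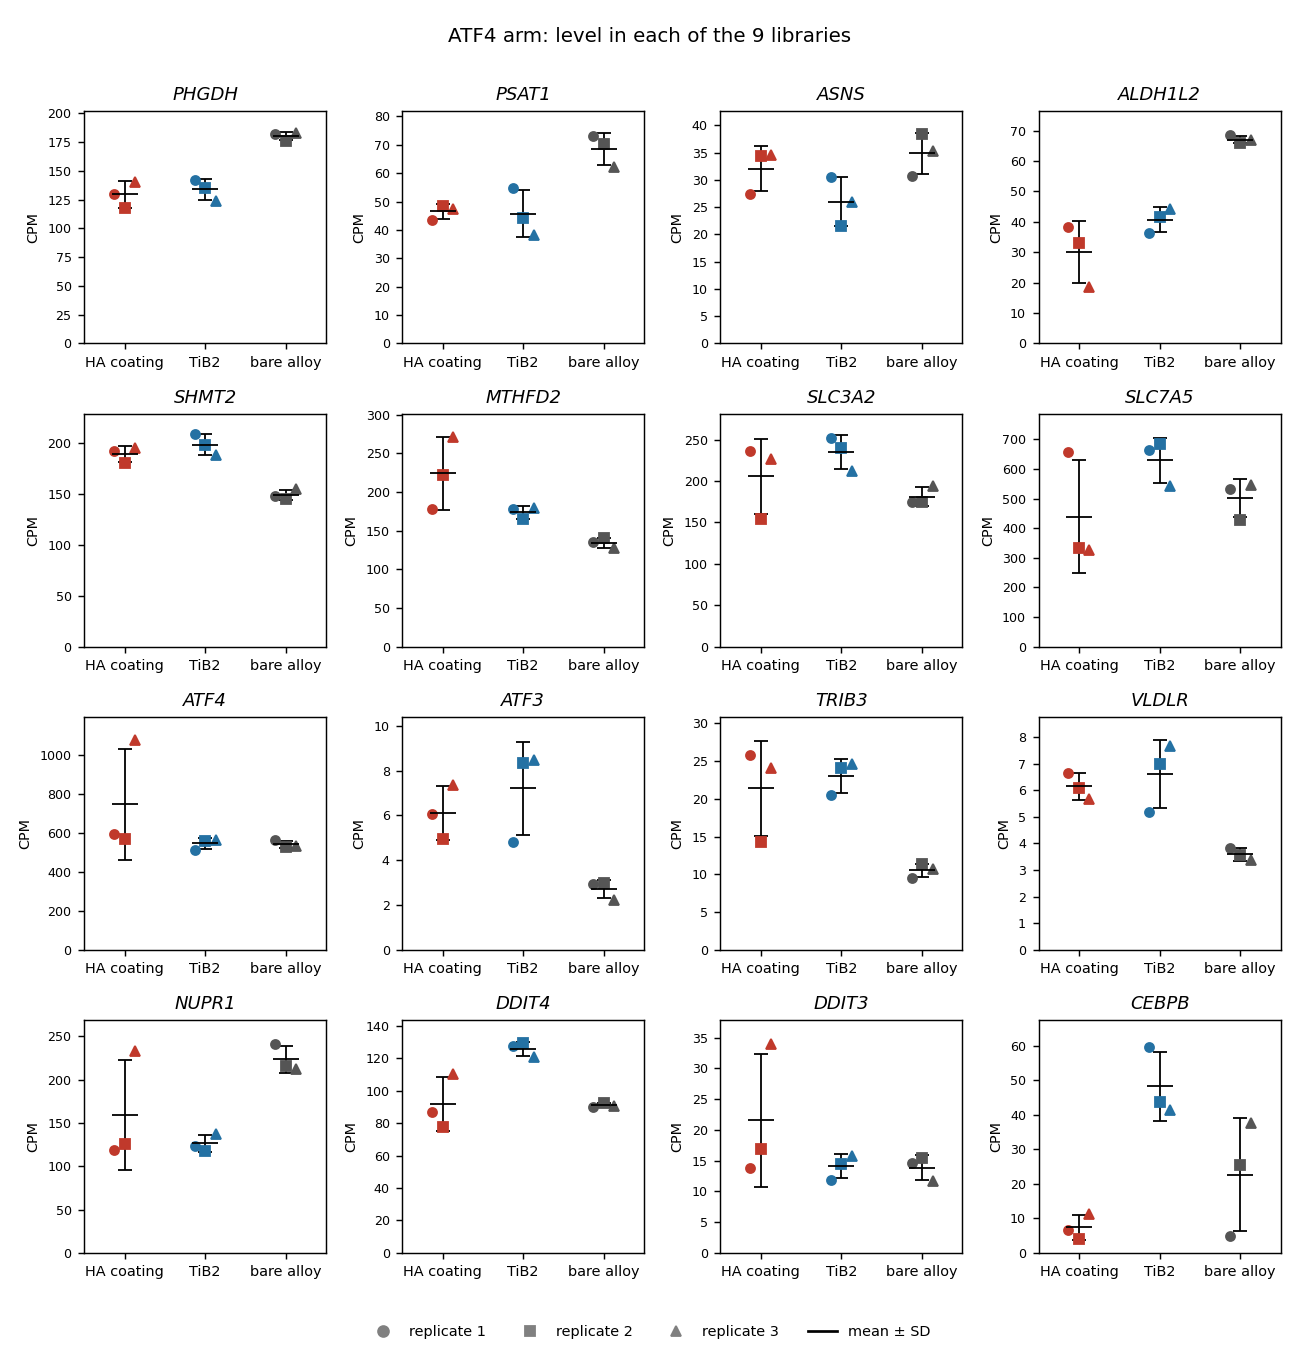
Level of 16 genes of the ATF4 arm (y axis, CPM after TMM scaling, from 0) in each of the 9 libraries, by surface; symbols mark the replicate and black bars the mean ± SD of 3 libraries. ATF3, TRIB3, VLDLR, MTHFD2 and SHMT2 lay above and PSAT1, ALDH1L2 and PHGDH below bare alloy in all coated libraries. ATF4 was high in HA replicate 3 alone, and CEBPB was low in the HA libraries and bare alloy replicate 1.

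The 3 sensors and factors of the other arm did not pass in any comparison. None of them reached an unadjusted edgeR p under 0.05 either, and DESeq2 and limma also called 0 of the 3 in each comparison. ATF6, the membrane-bound factor, had 70.3, 97.5 and 74.3 CPM on the HA coating and 71.4, 71.8 and 79.6 CPM on TiB2, against 67.2, 75.4 and 66.5 CPM on bare alloy. Its ranges overlapped on all surfaces, with log2 fold changes of 0.21 ± 0.17 on the HA coating and 0.09 ± 0.08 on TiB2. ERN1, which encodes IRE1, had 7.03, 4.54 and 3.38 CPM on the HA coating and 5.24, 4.28 and 6.03 CPM on TiB2, against 7.17, 5.29 and 5.78 CPM on bare alloy. Its log2 fold changes of -0.29 ± 0.29 on the HA coating and -0.22 ± 0.19 on TiB2 lay within the spread. XBP1, summed over spliced and unspliced forms, had 105, 101 and 194 CPM on the HA coating and 134, 125 and 155 CPM on TiB2, against 126, 150 and 143 CPM on bare alloy. HA replicate 3 was the highest library and the other HA libraries were the lowest, so that the log2 fold change was -0.07 ± 0.25 on the HA coating, beside -0.02 ± 0.10 on TiB2.

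Of the 14 chaperone and degradation genes, 6 rose and 1 fell on TiB2 (beside 12.9% and 12.2% of all genes), while 2 rose and none fell on the HA coating (14.3% called, beside 9.89% of all genes). On each coating 12 of the 14 had a positive log2 fold change, passed or not, as had 50.9% of all genes on the HA coating and 50.2% on TiB2. The median log2 fold change over the 14 was 0.29 on the HA coating and 0.20 on TiB2.

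HSPA5, the central chaperone BiP, had 885, 600 and 1129 CPM on the HA coating and 667, 781 and 792 CPM on TiB2, against 636, 594 and 606 CPM on bare alloy. HA replicate 2 lay within the bare alloy range while HA replicates 1 and 3 were the highest libraries. HSPA5 rose by 0.29 ± 0.09 on TiB2 (edgeR adjusted p = 0.0383), and the HA value of 0.51 ± 0.24 did not pass (adjusted p = 0.205). CALR, the glycoprotein chaperone calreticulin, had 1302, 974 and 1442 CPM on the HA coating and 1236, 1227 and 1268 CPM on TiB2, against 1056, 981 and 1014 CPM on bare alloy. The TiB2 libraries lay above bare alloy, and HA replicate 2 lay below it. CALR rose by 0.29 ± 0.08 on TiB2 (adjusted p = 0.0206).

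HYOU1, a nucleotide exchange factor for BiP, had 143, 86.7 and 101 CPM on the HA coating and 131, 113 and 114 CPM on TiB2, against 79.5, 78.2 and 72.9 CPM on bare alloy. Every coated library was above bare alloy. HYOU1 rose by 0.63 ± 0.08 on TiB2 (edgeR adjusted p = 0.000459), and the HA value of 0.51 ± 0.20 did not pass (adjusted p = 0.142). HERPUD1, a membrane protein of ER-associated degradation, had 298, 214 and 407 CPM on the HA coating and 271, 356 and 362 CPM on TiB2, against 200, 191 and 197 CPM on bare alloy. All coated libraries were higher, HA replicate 2 by the least. HERPUD1 rose by 0.75 ± 0.11 on TiB2 (adjusted p = 0.000993), and the HA value of 0.64 ± 0.23 did not pass (adjusted p = 0.112).

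SDF2L1, which assists BiP cofactors, had 7.01, 4.41 and 2.51 CPM on the HA coating and 7.93, 6.72 and 7.62 CPM on TiB2, against 2.38, 4.12 and 5.12 CPM on bare alloy. TiB2 lay above bare alloy, and the HA libraries spread over the whole range. SDF2L1 rose by 0.94 ± 0.25 on TiB2 (edgeR adjusted p = 0.0244). CRELD2, a stress-induced ER disulfide isomerase, had 23.5, 20.5 and 33.1 CPM on the HA coating and 20.8, 21.5 and 19.7 CPM on TiB2, against 23.4, 25.5 and 28.4 CPM on bare alloy. It was the single gene of this group to fall on TiB2, by 0.32 ± 0.10 (adjusted p = 0.0436). The HA value was -0.01 ± 0.21.

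MANF, a secreted protein that binds BiP, had 28.0, 29.7 and 51.3 CPM on the HA coating and 26.1, 21.4 and 28.9 CPM on TiB2, against 16.1, 20.4 and 20.6 CPM on bare alloy. All coated libraries were higher, HA replicate 3 most. MANF rose by 0.93 ± 0.25 on the HA coating (edgeR adjusted p = 0.048) and by 0.43 ± 0.14 on TiB2 (adjusted p = 0.049). DNAJB9, a BiP cofactor of the J-protein family, had 18.0, 18.1 and 32.2 CPM on the HA coating and 12.9, 12.9 and 17.2 CPM on TiB2, against 11.1, 13.2 and 11.5 CPM on bare alloy. The HA libraries were the 3 highest, and DNAJB9 rose by 0.92 ± 0.25 on the HA coating (adjusted p = 0.0478), while TiB2 at 0.27 ± 0.15 did not pass (adjusted p = 0.225). The difference between the coatings, 0.65 ± 0.25, did not pass (adjusted p = 0.38).

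HSP90B1, the ER chaperone GRP94, had 1244, 1381 and 1933 CPM on the HA coating and 1053, 986 and 1070 CPM on TiB2, against 942, 1003 and 929 CPM on bare alloy. The HA libraries were again the 3 highest, but neither the value of 0.66 ± 0.21 against bare alloy (edgeR adjusted p = 0.0805) nor that of 0.54 ± 0.20 against TiB2 (adjusted p = 0.359) passed. The disulfide isomerases PDIA4 and PDIA6 had log2 fold changes of 0.15 ± 0.19 and 0.29 ± 0.20 on the HA coating and of 0.13 ± 0.07 and 0.08 ± 0.07 on TiB2. DNAJC3, another BiP cofactor, and EDEM1 and SEL1L of the degradation pathway lay between -0.12 and 0.11 on both coatings.

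**Figure D3:**
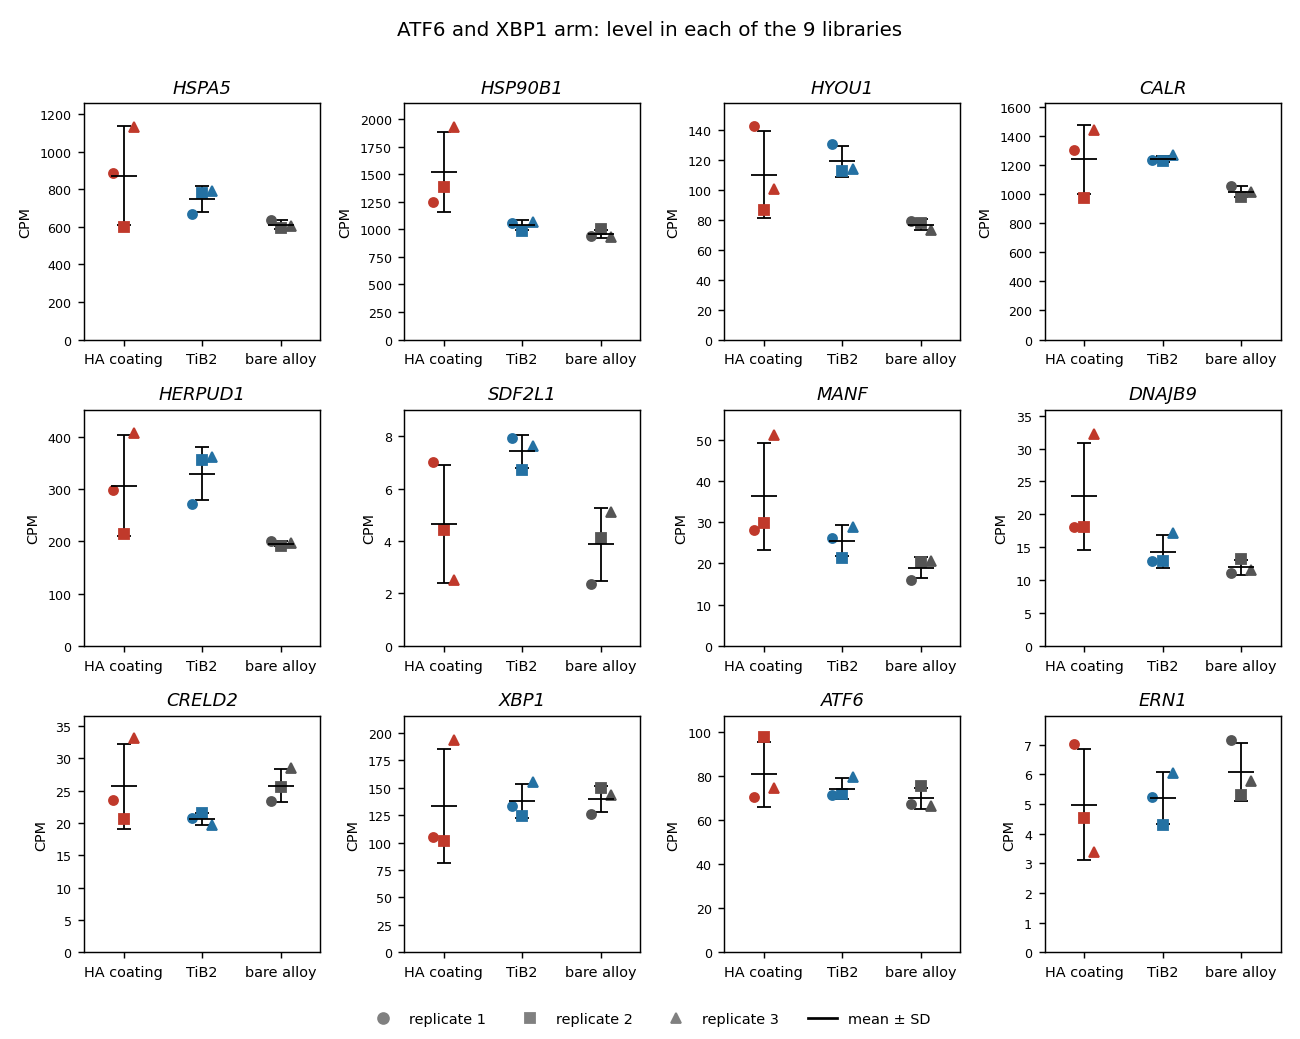
Level of 12 genes of the ATF6 and XBP1 arm (y axis, CPM after TMM scaling, from 0) in each of the 9 libraries, by surface; symbols mark the replicate and black bars the mean ± SD of 3 libraries. HYOU1, HERPUD1 and MANF lay above bare alloy in all coated libraries, whereas the levels of XBP1, ATF6 and ERN1 overlapped between surfaces.

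Of the 9 members with either ER stress element in a promoter window, HSPA5, CALR, HYOU1, HERPUD1 and SDF2L1 rose on TiB2, CRELD2 fell, and XBP1, HSP90B1 and PDIA6 did not pass. Of the 8 members of this arm with neither element, MANF rose on TiB2. On the HA coating 0 of the 9 and 2 of the 8, DNAJB9 and MANF, passed by edgeR; of all genes, 25.1% passed on TiB2 and 9.89% on the HA coating. Of the 9, HERPUD1, HSP90B1 and HYOU1 had an unadjusted edgeR p under 0.05 there, DESeq2 called HERPUD1 and HSP90B1, and limma called none. These counts are given without a test.

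The amino acid genes were also set against the chaperones within each library. For each library the log2 CPM of a gene, less its mean over the 9 libraries, was summarised by the median over the 10 amino acid genes and over the 14 chaperone and degradation genes. The difference, amino acid minus chaperone, was -0.16, -0.07 and -0.36 on the HA coating and 0.08, -0.06 and -0.05 on TiB2, against 0.15, 0.14 and 0.23 on bare alloy. Every bare alloy library lay above every coated library, and the highest HA library lay just under the lowest TiB2 library. A different summary used the fitted fold changes against bare alloy instead of levels. Its value, the median over the amino acid genes minus that over the chaperones, was -0.40 on the HA coating and -0.07 on TiB2. On TiB2 this second value turned sign, to 0.0919, without TiB2 replicate 3. The summaries thus differ on TiB2, and no direction is given for that surface. The chaperone median averaged 0.14 ± 0.27 on the HA coating and 0.03 ± 0.02 on TiB2, against -0.18 ± 0.02 on bare alloy. The amino acid median averaged -0.05 ± 0.14 on the HA coating and 0.03 ± 0.06 on TiB2, against 0.00 ± 0.07 on bare alloy (SD, n = 3 each). The factors and regulators averaged 0.06 ± 0.27 on the HA coating and 0.10 ± 0.10 on TiB2, against -0.16 ± 0.01 on bare alloy. No test is given, since the genes were chosen with results of these data known.

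**Figure D4:**
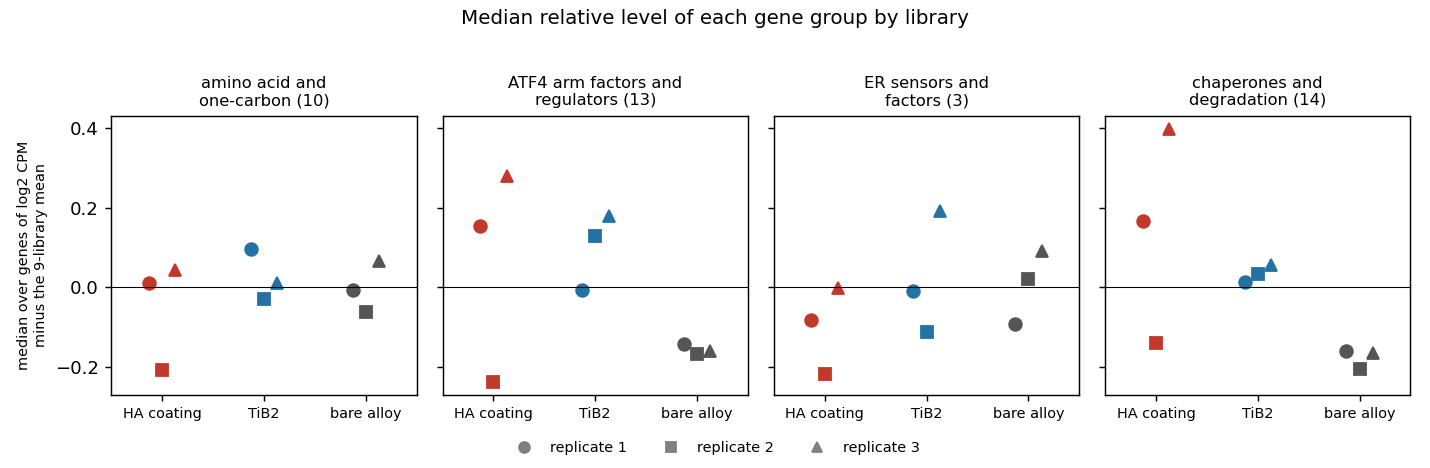
Median over the genes of each role of log2 CPM less the gene's 9-library mean (y axis), in each library (points, symbols by replicate), by surface; panel titles give the number of genes. The bare alloy chaperone medians lay at -0.16, -0.21 and -0.17, below all TiB2 and all HA libraries, and HA replicate 2 was the lowest HA library in all 4 panels.

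The HA calls rested on each bare alloy library. With all libraries, 9.89% of all genes passed on the HA coating and 25.1% on TiB2. The number called over all genes also changed between the fits below, as given under the dependence on processing. With bare alloy replicate 2 or 3 left out, edgeR called 0 of the 40 members on the HA coating, with 10 and 8 at an unadjusted p under 0.05; it called 1 without bare alloy replicate 1, 11 without HA replicate 1, 3 without HA replicate 2 and 7 without HA replicate 3. With the split of the libraries as a term it called 0, with 6 at an unadjusted p under 0.05, and on all 6 libraries without the term DESeq2 called 11 and limma on FPKM 6. With that term, bare alloy replicate 1 was the only bare alloy library set against the HA libraries. The 0 calls therefore cannot tell the split from the loss of reference libraries. The log2 fold changes of the 8 called members kept their direction in every one of the left-out fits. Their highest edgeR adjusted p in those fits was 0.0865 for ALDH1L2 to 0.205 for VLDLR. On TiB2, 13 of the 20 calls were kept whichever library was left out. The 7 that were lost at least once were ASNS, STC2, HSPA5, CALR, SDF2L1, CRELD2 and MANF. HSPA5, CRELD2 and MANF were each lost in 5 of the 6 left-out fits. The highest adjusted p of the 7 by edgeR was 0.0765 for SDF2L1 to 0.175 for MANF, and without bare alloy replicate 2 edgeR called 13 members.

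HA replicate 3 was the highest of the 3 HA libraries for 22 of the 40 members, HA replicate 1 for 15 and HA replicate 2 for 3. In part, HA replicate 3 differed by transcript length. Of the 20 members whose longest transcript has at most 2924 bases, 19 were higher in HA replicate 3 than in the mean of the other HA libraries, with a median log2 difference of 0.42; SDF2L1 was the exception. Of the 20 longer members, 9 were higher, with a median of -0.09. Over all genes tested the medians were 0.31 for 9463 genes up to that length and -0.11 for 10045 longer genes. Length alone accounted for 2.61% of the variance over genes of that library's deviation from the HA mean. That variance also holds counting error, which was not separated. Length and GC content together accounted for 8.77%, 5.38% and 3.01% in HA replicates 1, 2 and 3, and at most 1.30% in any other library. HA replicate 1 had the opposite trend with length, with a median deviation of -0.12 in genes of at most 1694 bases and 0.12 in genes of at least 4741 bases, against 0.23 and -0.19 in HA replicate 3; deviations from a mean of 3 libraries are not independent. With an offset for length and GC content, chosen after seeing the data, 11 members passed on the HA coating and 20 on TiB2. The part of length in the levels of ATF4, DDIT3, XBP1 and ALDH1L2 in HA replicate 3 was not tested further. Within a surface, the median log2 range of a member over its 3 libraries was 0.63 on the HA coating and 0.24 on TiB2, against 0.18 on bare alloy.

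**Figure D5:**
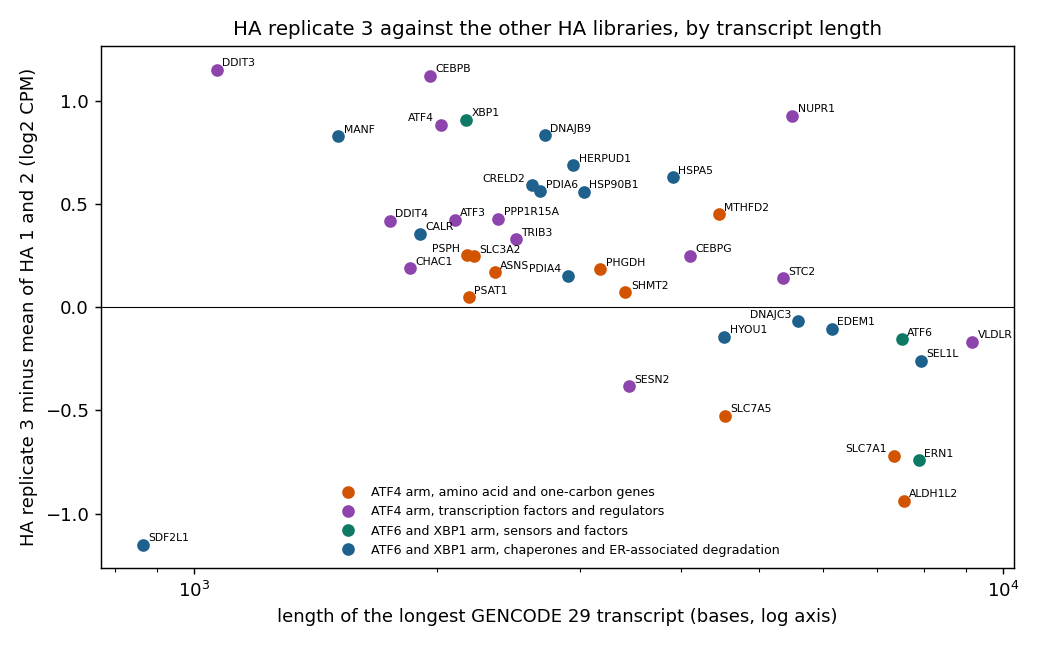
Difference of HA replicate 3 from the mean of HA replicates 1 and 2 (y axis, log2 CPM) against the length of the longest GENCODE 29 transcript (x axis, log scale) for the 40 genes, coloured by role. Of the 20 genes up to 2924 bases, 19 lie above 0; of the longer 20, 9 do.

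The 3 genes whose log2 CPM followed ATF4 most closely over the 9 libraries, among 6297 genes with a mean of at least 5 FPKM, were TMEM219, SMIM26 and EIF4EBP1, with Pearson's r of 0.99, 0.98 and 0.98. Without HA replicate 3 the values were 0.66, 0.85 and 0.78. EIF4EBP1, the translation inhibitor 4E-BP1, had 66.3, 60.8 and 111 CPM on the HA coating and 53.4, 54.6 and 52.8 CPM on TiB2, against 58.0, 52.3 and 52.0 CPM on bare alloy. Its one high library was the one in which ATF4 was high.

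Other genes of the pathways, in 6 lists of 97 genes, held 4 genes of 96 tested that passed on the HA coating (3 up and 1 down, beside 9.89% of all genes) and 33 of 95 on TiB2 (20 up and 13 down, beside 25.1%). On the HA coating 30 had an unadjusted edgeR p under 0.05, and DESeq2 called 16 and limma 4. On TiB2, DESeq2 called 39 and limma 26. Between the coatings edgeR called 0 of 96 (beside 0.632% of all genes), with 15 at an unadjusted p under 0.05. DESeq2 and limma also called 0. The shares of all genes given here are those of edgeR. On the HA coating, the tryptophanyl-tRNA synthetase WARS1 rose by 0.66 ± 0.15, the chaperone HSPA13 by 0.85 ± 0.19 and the IRE1 adaptor TRAF2 by 0.75 ± 0.17. CBS of cysteine synthesis fell there by 0.81 ± 0.19; a near-identical copy of CBS in GRCh38 makes its count uncertain.

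On TiB2, where 12.9% of all genes rose and 12.2% fell, 7 of 21 further ATF4 and CHOP targets rose and 3 fell. The secreted stress factor GDF15, at 26.6 CPM on TiB2 and 7.31 CPM on bare alloy, rose by 1.86 ± 0.16. The cystine transporter SLC7A11, at 87.5 CPM on TiB2 and 37.6 CPM on bare alloy, rose by 1.22 ± 0.11. CBS fell by 0.77 ± 0.12 and PYCR1 of proline synthesis by 0.36 ± 0.07. Among 7 eIF2alpha kinases and phosphatase partners, PPP1R15B rose by 0.58 ± 0.10 and EIF2AK1 by 0.25 ± 0.06, while EIF2AK2 fell by 0.55 ± 0.08. Of 18 cytosolic aminoacyl-tRNA synthetases 5 rose and 1 fell (33.3% called, beside 25.1% of all genes). VARS1 stood at 0.31 ± 0.09 and SARS1 at -0.21 ± 0.07.

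Among the ER genes outside the 40, rises and falls both occurred on TiB2, where 12.9% of all genes rose and 12.2% fell. Of 18 further chaperones and folding enzymes, QSOX1 rose by 0.56 ± 0.08 and UGGT1 by 0.29 ± 0.09, while SIL1 fell by 0.38 ± 0.08 and PPIB by 0.34 ± 0.09. Of 21 further degradation and secretory genes, 0 rose and 3 fell (14.3% called, beside 25.1% of all genes). OS9 was among those that fell, by 0.44 ± 0.06. Of 10 further sensors and processing enzymes 4 rose and 3 fell, with TRAF2 at 0.82 ± 0.11 and BAK1 at 0.52 ± 0.13, and with MBTPS1 and MBTPS2, the proteases that release ATF6, at -0.33 ± 0.07 and -0.27 ± 0.08. The collagen gene COL1A1, whose product is folded in the ER, averaged 1140 CPM on the HA coating and 1291 CPM on TiB2, against 3055 CPM on bare alloy, and fell by 1.42 on the HA coating (edgeR adjusted p = 0.0446) and by 1.24 on TiB2 (adjusted p = 0.00014). It is 1 of 6 osteoblast and mesenchymal markers, of which 1 rose and 3 fell on the HA coating and 2 rose and 4 fell on TiB2. Of all genes, 9.89% passed on the HA coating and 25.1% on TiB2. ALPL, the alkaline phosphatase of bone, rose by 2.65 on the HA coating (adjusted p = 0.00353) and by 2.89 on TiB2 (adjusted p = 8.45e-05), and the osteoblast factor RUNX2 rose by 0.66 on TiB2 (adjusted p = 0.0373). In these bulk libraries, fewer cells of a kind and less RNA per cell cannot be told apart.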

How the data were processed

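The authors deposited, in a single table, FPKM values and raw counts for every gene in the 9 libraries. The submitters' processing notes name GRCh38, limma, featureCounts 2.0.1, StringTie 2.1.4, HISAT2 2.2.1 and cutadapt 2.10, without roles. How strand and multi-mapping reads were handled is not stated, so overlapping genes and genes with near-identical copies (PSPH, SLC7A5, HSP90B1) are uncertain. Groups and replicate numbers came from the labels.

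Each comparison used its own 6 libraries with filterByExpr, TMM and edgeR 4.0.16 (R 4.3.3), quasi-likelihood test, two-sided, Benjamini-Hochberg over all genes tested, threshold 0.05. The standard error is the log2 fold change divided by the square root of F. CPM values are the deposited counts after TMM over all 9 libraries. Alternatives were RLE factors, other filters, DESeq2 1.42.0, limma 3.58.1 on log2(FPKM + 1) and log2(FPKM + 0.1), 1 fit of all libraries, a replicate block, the split of the libraries as a term, an offset for length and GC, and leaving out each library. The edgeR test was also run on simulated counts. These had the same spread in both groups, no split of the libraries and no trend with length, so the run cannot speak to those features. Members, roles and lists were chosen with earlier results of these data known. Library values are printed for ATF4, DDIT3, ATF6, ERN1, XBP1 and HSPA5, for each member that passed in at least 1 comparison, and for HSP90B1, chosen after its values were seen; of each list of other genes, at most 2 rises and 2 falls per comparison with the largest change are named, and some of these are not reported here. The 5 marker lists were summed per library. Figures used Python 3.11.15, pandas 2.3.3, numpy 2.4.6 and matplotlib 3.10.9.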

Additional observations from a re-analysis of the deposited data

Results flagged for a closer look

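CEBPB differed between the coatings, by a log2 fold change of -2.72 ± 0.34 for the HA coating against TiB2 (edgeR adjusted p = 0.0072), which tests the difference of the 2 coating effects itself. All 3 HA libraries, at 4.05 to 11.3 CPM, lay below all 3 TiB2 libraries, at 41.3 to 59.6 CPM. Bare alloy replicate 1, at 4.95 CPM, lay within the HA range. Bare alloy replicates 2 and 3, at 25.5 and 37.5 CPM, lay between the HA and TiB2 ranges. Bare alloy replicate 1 is the library that shares with the HA libraries 0 counts of CD3D, CD3E, CD3G and LCK. CD3G had 0 counts in TiB2 replicate 3 too.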

How the results depend on the processing

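Members called ranged as follows with each library left out in turn: 0 to 11 on the HA coating against bare alloy (8 with all), 13 to 18 on TiB2 against bare alloy (20 with all) and 1 to 2 between the coatings (1 with all). Genes called ranged from 598 to 4185 (1990 with all), from 3685 to 4211 (5059 with all) and from 49 to 1224 (127 with all) in the same order. The amino acid median minus the chaperone median ranged from -0.52 to -0.21 on the HA coating, where the value with all libraries was -0.40, and from -0.141 to 0.0919 on TiB2, where it was -0.07 and so had no stable sign. For the HA coating against bare alloy, genes called numbered 1093 without a filter, 1148 at a mean FPKM of at least 5, 3562 by DESeq2, 3518 in 1 fit of all 9 libraries, 210 with the split of the libraries as a term and 3358 with the length and GC offset. Members called numbered 2 without a filter and 0 with the split as a term, against 6 at an unadjusted p under 0.05. For TiB2 against bare alloy, genes called numbered 2859 at a mean FPKM of at least 5 and 2132 in 1 fit of all 9 libraries, where 8 members were called; the median difference at a mean FPKM of at least 5 was -0.14. Between the coatings, genes called numbered 35 without a filter, 38 at a mean FPKM of at least 5, 501 by DESeq2 and 67 in 1 fit of all 9 libraries; CEBPB lost its call without a filter and in the 9-library fit, leaving 0 members by edgeR, with 4 and 6 at an unadjusted p under 0.05. The causes were not tested, except that the FPKM filter leaves fewer genes to test. With the split as a term, the HA libraries are set against bare alloy replicate 1 alone.

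No pairing by equal replicate numbers was seen: deviations of same-numbered libraries correlated at -0.16 to 0.15, with no pair of surfaces over 0.1 in every replicate. Weak correlations cannot exclude a pairing. The replicate block gave 3 members and 1357 genes on the HA coating, 14 members and 3625 genes on TiB2, and 1 member and 195 genes between the coatings.

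Among genes given whatever their result, signs turned only where no call was made. On the HA coating XBP1 was 0.0728 with the split as a term, and -0.436 to 0.0927 with a library left out. On TiB2, ATF4 was -0.0323 and DDIT3 -0.0191 at a mean FPKM of at least 5, and XBP1 was 0.0316 and 0.0324 by limma with the larger and the smaller pseudocount and 0.0455 with the length and GC offset. With libraries left out on TiB2, ATF4 ranged from -0.0157 to 0.0561, DDIT3 from -0.087 to 0.128 and XBP1 from -0.112 to 0.0509. Between the coatings ERN1 was 0.163 with that offset and, with a library left out, ERN1 ranged from -0.40 to 0.14, XBP1 from -0.437 to 0.0988, ATF6 from -0.0524 to 0.197 and HSPA5 from -0.0253 to 0.416.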

Other observations

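Marker genes of other cell types were summed per library beside these results. Endothelial markers summed to 11.5 to 13 CPM on the HA coating and 9.34 to 10.1 CPM on TiB2, against 26.6 to 35.2 CPM on bare alloy. That difference lay in CDH5, which averaged 2.22 CPM on the HA coating and 3.10 CPM on TiB2, against 24.98 CPM on bare alloy; PECAM1 averaged 9.10 CPM on the HA coating and 6.28 CPM on TiB2, against 6.47 CPM on bare alloy, and KDR stood at 0.684, 0.198 and 0.106 CPM on the same surfaces in that order. Macrophage markers summed to 58.1 to 87.6 CPM on the HA coating and 78.9 to 95.1 CPM on TiB2, against 69.4 to 81.8 CPM on bare alloy. Epithelial markers summed to 143 to 215 CPM on the HA coating and 198 to 210 CPM on TiB2, against 138 to 179 CPM on bare alloy. Osteoblast and mesenchymal markers summed to 5354 to 9046 CPM on the HA coating and 8275 to 8709 CPM on TiB2, against 16130 to 17791 CPM on bare alloy. These sums are nearly all COL1A1, COL1A2, SPARC and VIM, whereas ALPL averaged 11.02 CPM on the HA coating and 12.9 CPM on TiB2, against 1.72 CPM on bare alloy, and RUNX2 averaged 3.18 CPM on the HA coating and 3.65 CPM on TiB2, against 2.30 CPM on bare alloy. Their part in the changes of the ATF4 and chaperone genes was not tested.

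In each library, 4 rows of chromosome 21 that have only an identifier took 0.0831% to 0.197% of counts on the HA coating and 0.137% to 0.155% on TiB2, against 6.46%, 1.07% and 0.617% in bare alloy replicates 1, 2 and 3.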
